A study of Mus musculus with 12 samples.

Results

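Ephrins and Eph receptors were measured as RNA in tissue layers from the surface of mouse embryo hearts, as 10 genes chosen by symbol (Efna1, Efna5, Efnb1, Efnb2, Efnb3, Epha3, Epha4, Ephb2, Ephb3 and Ephb4) out of the 17637 genes in the table. All 10 were in the table and all 10 passed the filter on low values. The embryos were of the CD1 stock (an outbred mouse stock), carried a wild type genotype and were at stage E16.5, late in gestation. Artery libraries were made from the mesothelium, an epithelial sheet, and submesothelium at the great arteries' base. Ventricle libraries were made from epicardium with subepicardium, peeled from the ventricular wall. Tissue was pooled by litter, so that each of 6 litters gave 1 artery and 1 ventricle library, and single embryos cannot be told apart. The series asks how the RNA of the artery layers differs from that of the ventricle layers.

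Eph receptors form the largest family of receptor tyrosine kinases, and their ligands, the ephrins, are themselves bound to the cell surface, so that signalling needs contact between cells. Ephrin-A ligands are held by a lipid anchor and mostly bind EphA receptors, whereas ephrin-B ligands span the membrane and mostly bind EphB receptors, with EphA4 binding both classes. Binding signals forward into the receptor cell and in reverse into the ligand cell, and often makes cells repel each other and sort at borders. In blood vessels ephrin-B2 marks arterial endothelium and is also made by the muscle and pericytes of vessel walls, while its receptor EphB4 marks venous endothelium. Ephrin-B2 is needed for lymphatic vessels to remodel as well.

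The promoters of the ephrin-B and EphB members with the largest differences are shown first, since these genes lead the results. They are RefSeq windows in GRCm38.p6, from 250 bases before to 50 bases after the transcription start, read 5′ to 3′ on the gene's strand, with CG dinucleotides in capitals. The Efnb2 window is chr8:8661193-8661492 (minus strand), that of Ephb2 is chr4:136835963-136836262 (minus strand) and that of Ephb3 is chr16:21204545-21204844 (plus strand).
Efnb2: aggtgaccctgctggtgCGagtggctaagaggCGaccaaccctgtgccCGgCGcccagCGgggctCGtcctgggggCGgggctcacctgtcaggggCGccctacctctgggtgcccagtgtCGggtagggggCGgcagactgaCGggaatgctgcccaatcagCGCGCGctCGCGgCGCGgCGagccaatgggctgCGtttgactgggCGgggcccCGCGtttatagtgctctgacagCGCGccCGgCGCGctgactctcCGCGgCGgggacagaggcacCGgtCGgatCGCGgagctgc
Ephb2: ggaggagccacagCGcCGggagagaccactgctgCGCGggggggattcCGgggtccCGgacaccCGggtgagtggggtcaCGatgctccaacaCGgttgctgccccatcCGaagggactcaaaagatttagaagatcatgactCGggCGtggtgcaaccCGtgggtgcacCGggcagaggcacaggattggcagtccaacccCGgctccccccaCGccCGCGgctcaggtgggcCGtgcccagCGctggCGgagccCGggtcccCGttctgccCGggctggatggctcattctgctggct
Ephb3: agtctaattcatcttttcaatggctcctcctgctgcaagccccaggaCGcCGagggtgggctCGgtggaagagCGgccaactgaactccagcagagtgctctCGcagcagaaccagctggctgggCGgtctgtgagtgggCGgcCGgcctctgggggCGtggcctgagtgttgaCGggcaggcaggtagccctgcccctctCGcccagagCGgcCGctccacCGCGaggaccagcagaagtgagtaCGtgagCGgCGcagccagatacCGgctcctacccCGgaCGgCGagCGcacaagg
The Efnb2 window held 35 CG dinucleotides, that of Ephb2 24 and that of Ephb3 23. Windows were found for 9 of 10 members (all but Efnb3), with 14 to 38 CG dinucleotides each, against a median of 7 over all 32851 promoter windows of that length. CG-dense promoters were thus shared by the members that differed between the layers and by those that did not pass the test. On both strands, the GC box GGGCGG occurred 3 times in the Efnb2 window, 2 times in that of Ephb3 and in none of that of Ephb2, and 35.7% of all promoter windows hold it at least once. The RBPJ core TGGGAA and the TCF and LEF core CTTTGA were in none of these 3 windows, and 25.6% and 16% of all windows hold them. The E-box CACGTG was likewise in none of them, and 7.15% of all windows hold it. Since GGGCGG was the only one of the 4 motifs found in these windows, no matches of different motifs overlapped.

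Expression is given as the deposited normalized signal, which is CPM (read counts scaled to a common library total) of a scaled library size. Differences are on the log2(value + 1) scale, artery minus ventricle, with their standard error (SE), and adjusted p-values are from limma over 14779 genes. Of the 10 members, 5 passed an adjusted p of 0.05, 4 of them higher and 1 lower in artery, where 24.1% of all genes tested passed. By direction, 12.2% of all genes tested were higher and 11.8% were lower in artery. The ephrin-B ligand Efnb2, the receptors Ephb2 and Ephb3 and the receptor Epha3 were higher in artery, by 1.29 to 1.57, and the ephrin-B ligand Efnb3 was lower, at -0.95. The median difference was 0.22 over the members and -0.04 over all genes tested. The 2 groups did not overlap for 3 members, against 11.9% of all genes tested.

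Read totals were 6.77 M in artery 1, 7.97 M in artery 6 and 16.45 to 22.1 M in the other 10 libraries, and each member had at least 114 reads in every library. Artery 1 stood apart on the second principal component, and artery 4 lay nearest to the ventricle libraries on the first. Without artery 1 and artery 4, 7 of 10 members passed (Efna5 and Efnb1 added), where 34.6% of all genes tested did. Leaving out the artery library nearest to ventricle tends to widen the group difference, so this count is no added support. With edgeR and with DESeq2, each on recovered reads, 6 passed (Efna5 added), where 23.3% of all genes did with edgeR and 28.2% with DESeq2. With the litter as a block 5 passed, where 24.5% of all genes did. Of the cell type markers, smooth muscle Myh11 averaged 341 ± 124 in artery and 5.27 ± 2.11 in ventricle (SD). Myocd of the same list did not pass (29.0 ± 10.5 in artery, 25.3 ± 9.87 in ventricle, adjusted p = 0.613, limma). The epicardial and mesothelial list was lower in artery for 9 of 9 genes, where 11.8% of all genes tested were lower. None of the 9 was at 0 reads in all libraries of a group.

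**Figure D1:**
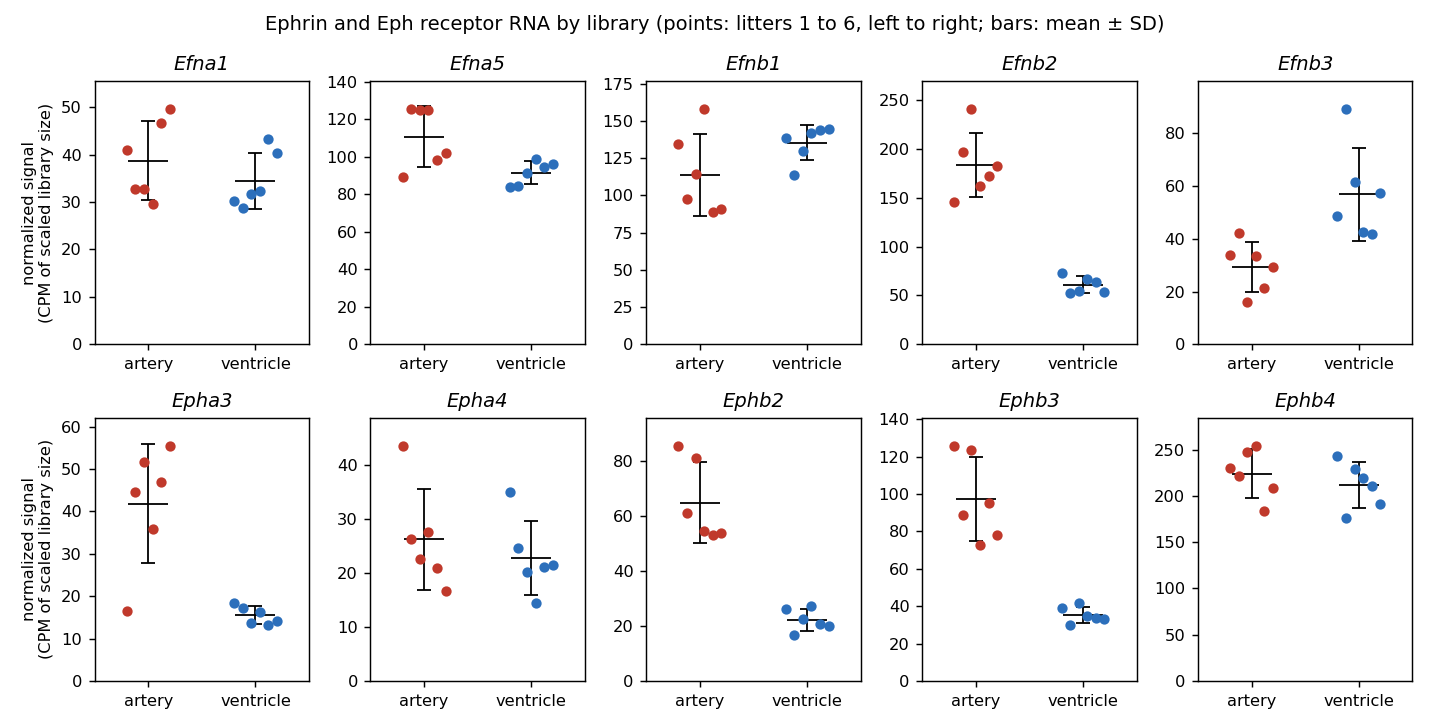
Normalized signal (y axis, CPM of a scaled library size, from 0) of the 10 members in 6 artery (red, left) and 6 ventricle (blue, right) libraries, with points in litter order and bars for the mean ± SD. The artery points of Efnb2, Ephb2 and Ephb3 all lie above the ventricle points, while artery 1 is the lowest artery point of Epha3.

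Efnb2, the ligand that marks arterial endothelium, was the member with the largest difference. It ran from 146 to 241 in artery, with a median of 178, and from 52.2 to 73.4 in ventricle, with a median of 59.3. Every artery library was above every ventricle library. In bulk tissue such as this, fewer cells of a type and less RNA per cell cannot be told apart. The means were 184 ± 33.0 in artery libraries against 60.8 ± 8.64 in ventricle libraries (SD, n = 6 each). The log2 difference came to 1.57 ± 0.13 (SE, adjusted p = 1.12e-06, limma), with 95% limits of 1.303 and 1.84. Artery was higher in 6 of 6 litters, by 0.98 in litter 1 and by 2.12 in litter 3. The gene lies on chromosome 8 (8:8617434-8661242 in GRCm38, minus strand).

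Efnb3, an ephrin-B best known from axon guidance in the nervous system, went the other way. It ran from 16.1 to 42.1 in artery (median 31.2) and from 42.0 to 89.2 in ventricle (median 53.0). Only artery 2 reached the lowest ventricle library, and ventricle 2 was the highest of all. The means were 29.3 ± 9.38 in artery libraries against 56.9 ± 17.7 in ventricle libraries (SD, n = 6 each). On the log2 scale this differed by -0.95 ± 0.23 (adjusted p = 0.00833, limma), lower in artery in 6 of 6 litters. Within litter 3 it fell by 1.87 and within litter 4 by 0.34. The gene lies at 11:69554092-69560205, minus strand.

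Efnb1, the third ephrin-B, which is X-linked and shapes borders in the developing skeleton, did not pass. It ran from 88.6 to 158 in artery (median 106) and from 114 to 144 in ventricle (median 140). The ranges overlapped, and artery 4 was the highest of the 12 libraries. The log2 difference was -0.28 ± 0.14 (adjusted p = 0.17, limma; 95% limits -0.57 and 0.02), with artery lower in 5 of 6 litters. Without artery 4 it was -0.38 and passed (adjusted p = 0.0287, limma). This was the only change of call in 18 omissions of 1 library or 1 litter. The gene lies at X:99136130-99148991, plus strand.

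The ephrin-B genes can be set against each other per kilobase (kb) of merged exon, which allows levels of different genes to be compared. Efnb2 made up 39.2 ± 7.61% of the summed ephrin-B signal per kb in artery libraries against 13.5 ± 2.12% in ventricle libraries (SD, n = 6 each). Efnb3 made up 13.4 ± 3.98% in artery and 26.95 ± 7.68% in ventricle. Efnb1 was the largest part in both, at 47.4 ± 6.97% in artery and 59.6 ± 6.17% in ventricle, though Efnb2 exceeded it in artery 2, artery 3 and artery 6. The summed ephrin-B signal was 69.0 ± 8.01 per kb in artery and 66.0 ± 1.82 per kb in ventricle, so the total was close in both groups while its makeup differed.

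The ephrin-A members Efna5 and Efna1, ligands of EphA receptors, did not pass. Efna5, a ligand known from axon mapping, ran from 89.4 to 125 in artery (median 113) and from 83.9 to 98.6 in ventricle (median 92.9). Artery 2, artery 3 and artery 4 lay near 125 and the other 3 artery libraries within or near the ventricle range. The log2 difference was 0.26 ± 0.10 (adjusted p = 0.0733, limma; 95% limits 0.05 and 0.48), with artery higher in 6 of 6 litters. Without artery 1 it was 0.32 and passed (adjusted p = 0.0140, limma). The call changed in 2 of 18 omissions of 1 library or 1 litter, each of which left out artery 1.

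Efna1, which is made by endothelial cells and induced by inflammatory signals, ran from 29.5 to 49.6 in artery (median 36.9) and from 28.7 to 43.2 in ventricle (median 32.05). The groups overlapped over most of their range. The log2 difference was 0.15 ± 0.14 (adjusted p = 0.479, limma; 95% limits -0.16 and 0.47). Efna1 lies at 3:89271733-89281142, minus strand, and Efna5 at 17:62604184-62881317, minus strand.

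Ephb2 and Ephb3, receptors for ephrin-B ligands that are known from border formation in the gut and palate, were both higher in artery. Ephb2 ran from 53.2 to 85.5 in artery (median 57.9) and from 16.7 to 27.3 in ventricle (median 21.5). The groups were apart, with artery 1 and artery 3 the highest. The means were 64.9 ± 14.6 in artery libraries against 22.3 ± 4.01 in ventricle libraries (SD, n = 6 each). Its log2 difference stood at 1.49 ± 0.15 (adjusted p = 9.11e-06, limma), higher in artery in 6 of 6 litters. Its within-litter difference was smallest in litter 4, at 0.98. The gene lies at 4:136647539-136835988, minus strand.

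Ephb3 ran from 73.0 to 126 in artery (median 92.1) and from 30.1 to 41.5 in ventricle (median 34.1). The groups were again apart, and artery 1 and artery 3 were again the highest. The means were 97.4 ± 22.5 in artery libraries against 35.3 ± 4.16 in ventricle libraries (SD, n = 6 each). As a log2 difference this gave 1.41 ± 0.14 (adjusted p = 7.6e-06, limma), with 6 of 6 litters higher in artery. Within litters the difference lay between 1.06 in litter 4 and 1.66 in litter 1. The gene lies at 16:21204755-21223305, plus strand.

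Ephb4, the EphB receptor that prefers ephrin-B2 and marks veins, did not pass. It ran from 183 to 254 in artery (median 226) and from 175 to 243 in ventricle (median 215). The groups overlapped almost fully, and litter 1 and litter 5 were lower in artery. The log2 difference was 0.08 ± 0.11 (adjusted p = 0.61, limma), and its 95% limits of -0.14 and 0.31 lie well below the differences of Ephb2 and Ephb3. The signal of Efnb2 relative to Ephb4, per kb, was 0.559 ± 0.102 in artery libraries against 0.195 ± 0.0171 in ventricle libraries (SD, n = 6 each). It ran from 0.429 to 0.658 in artery and from 0.162 to 0.206 in ventricle, and the ratios did not overlap. No test is given for this ratio. The gene lies at 5:137350109-137378669, plus strand, and shares 33 exon bases (0.711%) with the opposite-strand gene Zan, which averaged 1.32 over all libraries.

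Among the 3 EphB members, Ephb4 held 71.0 ± 4.56% of the summed signal per kb in artery and 86.5 ± 0.417% in ventricle. Ephb3 held 21.5 ± 3.70% in artery and 10.1 ± 0.544% in ventricle, and Ephb2 held 7.502 ± 0.982% in artery and 3.34 ± 0.342% in ventricle. The 6 ventricle libraries kept a narrow range for Ephb4, from 86.0 to 87.1%, while artery spanned 65.8 to 78.1%, with artery 4 nearest to ventricle. These shares leave out Ephb1 and Ephb6, and Ephb6 stood at 10.4 per kb in artery and 13.5 in ventricle. With both added, the EphB sum per kb was 81.0 ± 9.22 in artery and 70.3 ± 7.91 in ventricle, beside 48.3 and 45.6 for Ephb4. Among all EphB genes in the table, Ephb4 thus held a smaller share, which differed less between the groups.

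Epha3, a receptor of ephrin-A5 with known roles in the cushions of the embryonic heart, was higher in artery with 1 exception. It ran from 16.6 to 55.5 in artery (median 45.7) and from 13.2 to 18.5 in ventricle (median 15.2). Artery 1 lay inside the ventricle range and the other 5 artery libraries, from 35.9 upwards, lay above it. The means were 41.8 ± 14.1 in artery libraries against 15.5 ± 2.14 in ventricle libraries (SD, n = 6 each). The fitted log2 difference reached 1.29 ± 0.23 (adjusted p = 0.0013, limma), higher in artery in 5 of 6 litters. Within litter 1 the difference was -0.15, and within the other litters it was 1.09 to 1.90. The gene lies at 16:63543534-63864175, minus strand.

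Epha4, the EphA receptor that also binds ephrin-B ligands, ran from 16.7 to 43.6 in artery (median 24.4) and from 14.4 to 35.1 in ventricle (median 21.4). Litter 1 was the highest in both groups, and the groups overlapped. The log2 difference was 0.18 ± 0.22 (adjusted p = 0.594, limma; 95% limits -0.29 and 0.65), with artery higher in 4 of 6 litters. The EphA members thus moved in opposite ways in artery 1, where Epha4 was highest and Epha3 lowest of the artery libraries. Epha4 lies at 1:77367185-77515088, minus strand. The summed signal per kb of both EphA members was 8.08 ± 0.556 in artery and 4.62 ± 1.02 in ventricle. Over all EphA genes in the table the sum was 29.5 ± 2.00 in artery and 20.6 ± 2.38 in ventricle.

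**Figure D2:**
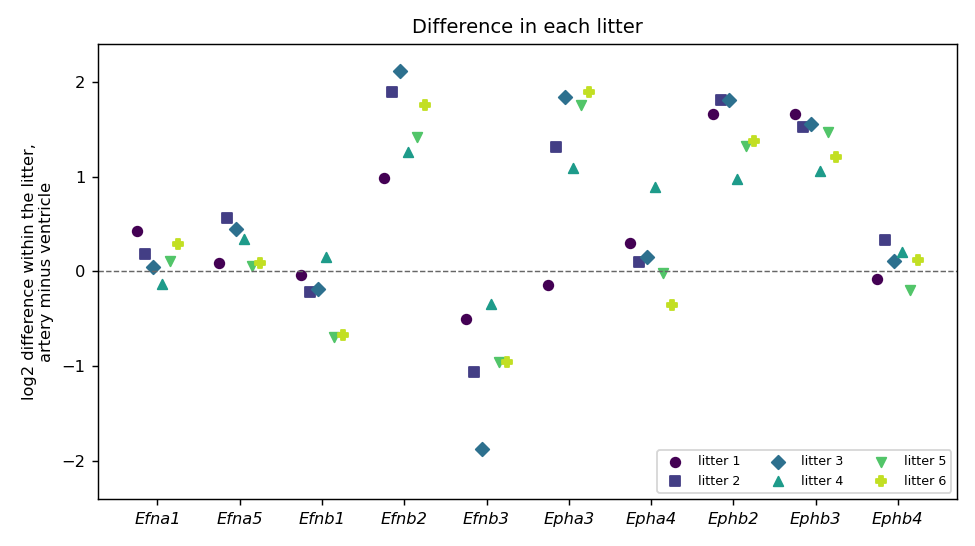
Log2 difference, artery minus ventricle, within each litter (y axis) for the 10 members (x axis), with 1 symbol per litter. All 6 litters lie above 0 for Efnb2, Efna5, Ephb2 and Ephb3 and below 0 for Efnb3, while litter 1 of Epha3 lies at -0.15.

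Order of levels per kb was led by Ephb4 in both layers, at 48.3 ± 5.61 in artery libraries against 45.6 ± 5.34 in ventricle libraries (SD, n = 6 each). In artery it was followed by Efnb1 (33.0), Efna5 (27.5), Efnb2 (26.8), Efna1 (21.2), Ephb3 (14.7), Efnb3 (9.21), Ephb2 (5.15), Epha3 (4.81) and Epha4 (3.26), all means per kb. The ranges of each pair of neighbours in that order overlapped. In ventricle the order after Ephb4 was Efnb1 (39.2), Efna5 (22.7), Efna1 (18.8), Efnb3 (17.9), Efnb2 (8.86), Ephb3 (5.32), Epha4 (2.84), Epha3 (1.79) and Ephb2 (1.76). There the ranges were apart between Efnb1 and Efna5, between Efnb3 and Efnb2, between Efnb2 and Ephb3 and between Ephb3 and Epha4, and overlapped for the other neighbours. Efnb2 stood above Efna1 in artery and below Efnb3 in ventricle. Merged exons are an upper bound on the length of any 1 transcript, so levels of genes with many alternative ends are understated.

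**Figure D3:**
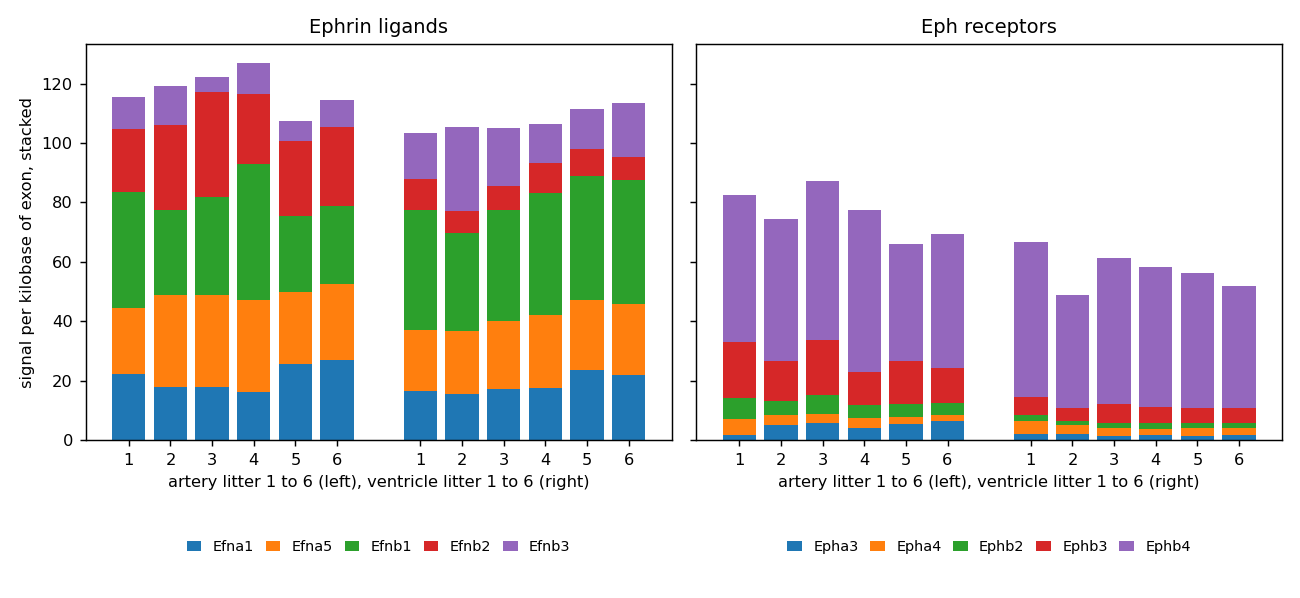
Signal per kb of merged exon (y axis, stacked from 0) of the ephrin ligands (left panel) and Eph receptors (right panel), with artery libraries of litters 1 to 6 left of the ventricle libraries in each panel. The Efnb2 and Ephb3 blocks are taller in artery, the Efnb3 block is taller in ventricle, and Ephb4 is the tallest receptor block in each library.

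A further 10 family genes were in the table, and 8 of them were tested, while Epha5 and Epha8 fell below the tested minimum. Epha6 and Epha10 were not found by symbol in the table. Of the 8 tested genes, 4 were higher in artery, 1 was lower and 3 did not pass. Of all genes tested, 12.2% were higher and 11.8% lower. Epha1, a receptor known mainly from epithelia, averaged 31.9 ± 6.70 in artery libraries against 10.2 ± 2.26 in ventricle libraries (SD, n = 6 each). This made a log2 difference of 1.55 ± 0.17 (adjusted p = 1.61e-05, limma), and its groups were apart. Of the merged exon bases of Epha1, 236 (6.01%) overlap the opposite-strand gene Zyx, which averaged 433 in artery and 295 in ventricle. The library kit does not mark strand, so reads of these bases cannot be told apart, and their part in the result was not tested.

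Efna3, an ephrin-A at low level, averaged 1.85 ± 0.765 in artery and 0.481 ± 0.147 in ventricle, with 6 to 37 reads per artery library and 4 to 14 per ventricle library. Its log2 difference was 0.90 ± 0.19 (adjusted p = 0.00308, limma), which the added 1 understates, and an opposite-strand antisense gene covers 344 of its exon bases. Epha7, a receptor of ephrin-A ligands, averaged 58.9 ± 12.7 in artery libraries against 36.5 ± 6.25 in ventricle libraries (SD, n = 6 each). The difference on the log2 scale equalled 0.66 ± 0.15 (adjusted p = 0.00602, limma), higher in artery in 5 of 6 litters. As for Epha3, litter 1 was the exception, at -0.12.

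Ephb1 was lower, at 17.2 ± 4.97 in artery libraries against 29.1 ± 4.38 in ventricle libraries (SD, n = 6 each). Its log2 difference stood at -0.75 ± 0.16 (adjusted p = 0.00441, limma), lower in 6 of 6 litters. The EphB receptors were therefore not uniform: Ephb2 and Ephb3 were higher, Ephb1 was lower, and Ephb4 and the kinase-inactive Ephb6 (-0.34, adjusted p = 0.0959, limma) did not pass. Epha2 stood at -0.44 (adjusted p = 0.0799, limma), lower in 6 of 6 litters, and passed with the litter as a block (adjusted p = 0.0392, limma). Efna4 was higher by 0.47 (adjusted p = 0.039, limma), a call lost in 12 of 18 omissions of 1 library or 1 litter, and Efna2 stood at 0.07. Epha5 and Epha8 were below the tested minimum: Epha8 had 2 to 11 reads in each artery library and 0 or 1 in each ventricle library.

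**Figure D4:**
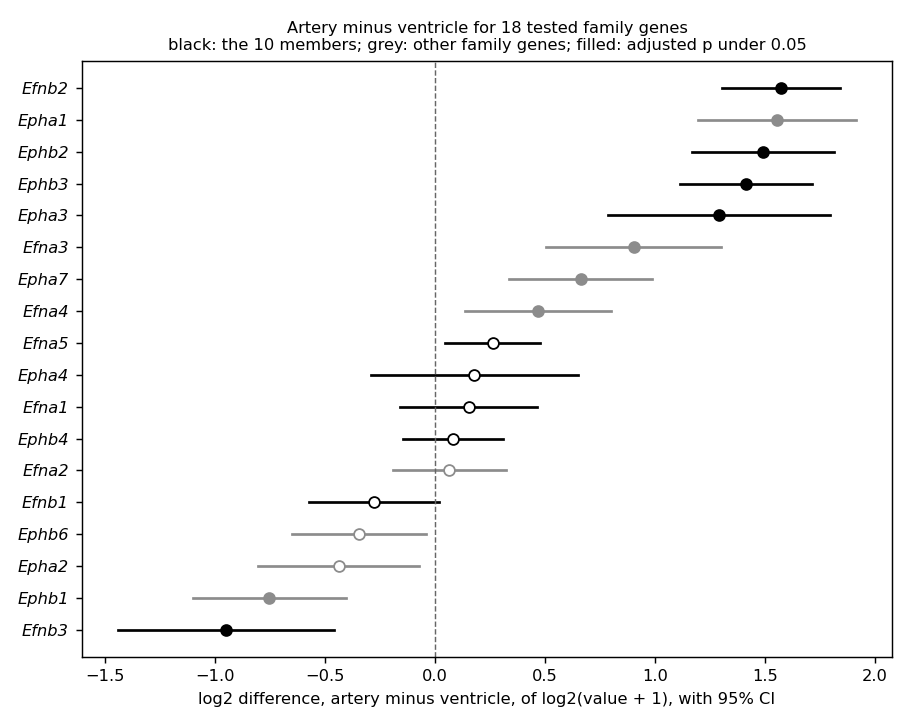
Log2 difference, artery minus ventricle, on the log2(value + 1) scale (x axis) with 95% limits for the 18 tested family genes (y axis), members in black and other family genes in grey, filled where adjusted p is under 0.05. Efnb2, Epha1, Ephb2, Ephb3 and Epha3 lie between 1.29 and 1.57, and Ephb1 and Efnb3 lie at -0.75 and -0.95.

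Genes that act downstream of Eph receptors and ephrins, or that cut them from the surface, passed about as often as all genes tested. Of 42 tested genes 9 passed and 33 did not, where 24.1% of all genes tested passed. Of the 9, 6 were higher and 3 lower in artery, where 12.2% of all genes tested were higher and 11.8% lower. The exchange factor Vav3, which Eph receptors recruit, averaged 33.0 ± 7.97 in artery libraries against 20.8 ± 2.66 in ventricle libraries (SD, n = 6 each). The log2 difference came to 0.62 ± 0.15 (adjusted p = 0.0092, limma). The Src-family kinase Fyn was higher by 0.28 ± 0.07 (adjusted p = 0.0118, limma) and the kinase Pak1 by 0.56 ± 0.15 (adjusted p = 0.0136, limma). The phosphatase Ptpn13, which can dephosphorylate ephrin-B tails, averaged 108 ± 31.1 in artery libraries against 171 ± 26.4 in ventricle libraries (SD, n = 6 each). On the log2 scale this differed by -0.69 ± 0.17 (adjusted p = 0.00866, limma). Arhgef15, an exchange factor of vascular cells that binds Eph receptors, stood at -0.56 ± 0.15 (adjusted p = 0.0172, limma) and the Eph-bound exchange factor Ngef at -0.90 ± 0.26 (adjusted p = 0.0226, limma). Without litter 3, 2 of the 42 genes passed, both lower, where 14% of all genes did. Without artery 1, 14 passed, 8 of them higher, where 29% of all genes did. The calls of Vav3, Fyn, Pak1 and Arhgef15 were lost without litter 3, and that of Ngef in 4 of 18 omissions and with edgeR.

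Some markers of cell types of the vessel wall were also higher in artery. Of all genes tested, 12.2% were higher and 11.8% lower. Smooth muscle markers were higher in artery for 5 of 6 genes, with summed signal of 1530 to 3375 in artery and 304 to 635 in ventricle. Pericyte markers were higher for 3 of 5 genes (694 to 1801 in artery, 293 to 477 in ventricle), and fibroblast markers for 3 of 6 (24505 to 43191 in artery, 21347 to 34799 in ventricle). The fibroblast sums overlapped, and Col1a1 and Col1a2, which made up most of them, did not pass (adjusted p = 0.410 and 0.116, limma). Arterial endothelial markers were higher for 3 of 10 genes (Gja4, Hey1 and Bmx) while 7 did not pass, with sums of 265 to 591 in artery and 236 to 335 in ventricle. These arterial endothelial sums overlapped as well. Beside the difference of Efnb2, pan-endothelial markers were lower for 2 of 9 genes (Kdr and Esam) and the other 7 did not pass, with sums of 838 to 1325 in artery and 1132 to 1409 in ventricle. Venous markers, set beside Ephb4, were lower for 1 of 5 genes, with sums of 366 to 597 in artery and 502 to 633 in ventricle. No marker of these lists was at 0 reads in all libraries of a group, and their part in the differences of Efnb2, Ephb2, Ephb3 and Epha3 was not tested.

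Beside the lower Efnb3, heart muscle markers were lower in artery for 6 of 7 genes, with summed signal of 3681 to 13816 in artery and 11500 to 30516 in ventricle. Of all genes tested, 11.8% were lower and 12.2% higher in artery. Ventricle 2 had the highest heart muscle sum and the highest Efnb3, and artery 3 had the lowest of both. Artery 5 was next lowest in both, and ventricle 1, ventricle 3 and ventricle 6 followed ventricle 2 as the highest in both. Of these, ventricle 6 was above ventricle 3 in the sum and below it in Efnb3. Among the remaining libraries the order differed too. These ranks run over both groups, so they include the group difference itself. Artery 1, with a sum of 13816, exceeded ventricle 4 (11500) and ventricle 5 (13057). Its Efnb3 signal of 34.0 was below the 42.5 of ventricle 4 and the 42.0 of ventricle 5. Schwann cell markers were lower for 5 of 6 genes and higher for 1, with sums of 17.98 to 33.9 in artery and 39.7 to 50.3 in ventricle. Autonomic neuron markers were higher for 3 of 7 genes, with 2 more below the tested minimum, and sums of 17.2 to 48.3 in artery and 6.57 to 9.51 in ventricle. Epicardial and mesothelial markers summed to 1645 to 3284 in artery and 2698 to 5107 in ventricle. The part of heart muscle, Schwann cell, autonomic neuron, epicardial and mesothelial markers in the difference of Efnb3 was not tested. Lymphatic markers were lower for 2 of 4 genes, red cell markers were higher for 2 of 4, and of 4 macrophage markers 1 was higher and 1 lower.

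The genes with the most similar profile over the 12 libraries were found by the root mean square difference of centred log2(value + 1) values, among 12114 other genes with a mean of at least 5. For Efnb2 they were Wbscr17 (0.11 on the log2 scale), Scara3 (0.11) and Antxr1 (0.12), for a profile whose own spread around its mean was 0.81. For Ephb2 they were Flna (0.14), Adamts2 (0.14) and Fbln2 (0.14), and for Ephb3 they were Flna (0.14), Slc1a4 (0.15) and Bgn (0.15). Flna was therefore the nearest gene to both of these receptors. For Epha3 they were Igf1 (0.22), Synpo2 (0.22) and Fam13c (0.23). For Efnb3 they included Acadl (0.14) and Mylk3 (0.16), whose own log2 differences were -0.92 for Acadl and -0.81 for Mylk3.

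Sequencing lane, as named in the library descriptions, was not the same for all libraries, and artery 6 alone was on lane 4. Within lane 1 (2 artery and 2 ventricle libraries) 2 members passed, Ephb2 by 1.92 and Ephb3 by 1.72, where 2.17% of all genes did. Within lane 2 (3 artery and 4 ventricle libraries) 4 members passed, all higher in artery, where 9.22% of all genes did. The log2 difference was 1.78 in lane 1 and 1.46 in lane 2 for Efnb2, 1.03 in lane 1 and 1.33 in lane 2 for Epha3, and -1.31 in lane 1 and -0.75 in lane 2 for Efnb3. Efnb3 did not pass within either lane (adjusted p = 0.179 in lane 1 and 0.153 in lane 2, limma), and Efnb2 and Epha3 passed within lane 2 and not within lane 1.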

How the data were processed

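RNA of pooled heart layers was sequenced as single reads of 50 bases from polyA libraries made with the NEBNext Ultra kit, as the labels' protocols state. Tools named in the submitters' processing notes are RSEM 1.2.3, cutadapt 1.3 and CASAVA 1.8.2, with GRCm38 as build; how values were normalized is not given in the sources used here. Values in the deposited signal table equal whole reads plus 0.5, scaled as CPM to an adjusted library size, as read from the values themselves: 100% of 211644 values were whole reads within 0.02. Tests therefore came from limma 3.58.1 in R 4.3.3 (trended, robust prior) on log2(value + 1) for genes with a mean of at least 1, two-sided, adjusted by Benjamini and Hochberg over 14779 genes. edgeR 4.0.16 and DESeq2 1.42.0 were run on the recovered reads as alternatives. Coordinates and merged exon lengths came from GENCODE M21 (GRCm38).

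Members and lists were chosen with earlier results of these data known. All 10 members are named, with up to 3 genes per direction by smallest p of the other family genes and of the signalling list, and the 3 nearest profiles of each member past the test, of which 1 gene is not reported here. The remaining tested family genes and Epha5 and Epha8 were added after their values were seen. On simulated data for this comparison (14734 genes tested, 200 changed, dispersion 0.05) 42% of genes changed 1.5-fold, 98% changed 2-fold and 100% changed 4-fold were recovered, with 9 false calls among 179. The simulation gave all genes the same dispersion and had no litter or lane effect. It also changed far fewer genes than the 3556 called here. Its recovery and false calls are therefore not the power and error rate of these libraries. The litter number pairs the libraries, per the labels. Deviations of same-litter libraries had a mean r of 0.256, from -0.035 in litter 1 to 0.474, against -0.051 for libraries of different litters. Of 6 artery libraries, 3 matched their own litter best. The fit without the block was the planned one. Each litter is its own pool, and p-values rest on how pools vary. Libraries of a group all differed by more than counting noise (chi-square over its degrees of freedom at least 10.6).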

Additional observations from a re-analysis of the deposited data

Results flagged for a closer look

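Each member was examined for a library far from the others in its group, in 20 groups of 6 libraries, and 1 was found, where chance gives about 1 in 20. Epha3 in artery 1 was 16.6, against 35.9 to 55.5 in the other 5 artery libraries. Its gap to the nearest of them was 0.634 of the group's range on the log2(value + 1) scale, past the critical 0.625. Artery 1 had the fewest reads (6.77 M), with 114 reads of Epha3. Artery 6, at 7.97 M, had 423 reads of Epha3 and the highest artery signal, 55.5. In artery 1, 2057 genes were at 0 reads, against 495 to 795 in the other libraries. Why Epha3 was low in artery 1 was not tested. The log2 difference of Epha3 without litter 1 was 1.58, against 1.29 with all libraries.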

How the results depend on the processing

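The 5 members past the threshold kept their direction and call in 18 omissions of 1 library or 1 litter and in each setting run other than the single lanes. The number of members past the threshold was 5 to 6 in the omissions, 5 with the litter as a replicate block, 6 with edgeR and 6 with DESeq2 (Efna5 added in both), and 2 in lane 1. The block left the call of each member as it was and added Epha2 among the other family genes. With the block, adjusted p was 1.45e-04 for Efnb2, 8.14e-05 for Ephb2, 3.44e-05 for Ephb3, 0.00557 for Epha3 and 0.00515 for Efnb3 (limma). Of these, only that of Efnb3 was smaller than in the planned fit without the block. Differences in the omissions ran from 1.46 to 1.69 for Efnb2, 1.41 to 1.60 for Ephb2, 1.33 to 1.49 for Ephb3, 1.17 to 1.58 for Epha3 and -1.07 to -0.76 for Efnb3. Over all genes, 2069 to 4291 passed in the omissions (3556 with all libraries), 320 in lane 1 and 1362 in lane 2, on fewer libraries, and 5118 without artery 1 and artery 4. Of the other family genes 4 to 6 passed in the omissions, 1 in lane 1 and 3 in lane 2. Of the signalling genes 2 to 14 passed in the omissions, 15 without artery 1 and artery 4, and 0 in lane 1 and 0 in lane 2 by limma, where 9 in lane 1 and 8 in lane 2 had an unadjusted p under 0.05. Direction turned for Epha4 without artery 1 and artery 4 (-0.045) and for Efna2 without ventricle 2 (-0.0064, against up to 0.14 without ventricle 5), neither past the threshold in any setting; the cause was not tested. Each member had 114 reads or more in every library, while Efna3, Epha5 and Epha8 rest on few reads.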
